A study of Mus musculus with 6 samples.

Results

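The 10 genes described here encode the enzymes of heme breakdown (Hmox1, Hmox2, Blvra and Blvrb) and 6 widely used targets of the transcription factor NRF2 (Nqo1, Gclc, Gclm, Srxn1, Txnrd1 and Slc7a11). They were chosen by symbol, and all 10 of them were found among the 24147 gene rows of the deposited count tables. The tissue was the lens capsule with its attached lens epithelial cells from wild type C57BL/6 mice 2 months old, left in place after the fiber cells had been removed through a cut in the central cornea, a mouse model of cataract surgery. Capsules were taken 24 h after that surgery (3 libraries) or immediately after it (0 h, 3 libraries), so both groups were operated on and neither is an untouched lens. The series calls the libraries biological triplicates, and the sources used here do not give how many animals or eyes went into each.

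Heme oxygenase opens the heme ring and releases biliverdin, carbon monoxide and iron, and biliverdin reductase turns biliverdin into bilirubin. HMOX1 is the inducible heme oxygenase and HMOX2 the constitutive form. NRF2 is held in the cytoplasm and marked for destruction by KEAP1 until oxidants or electrophiles modify KEAP1, after which NRF2 pairs with small MAF proteins on antioxidant response elements (ARE) in DNA. BACH1 occupies many of the same elements as a repressor and is displaced by heme, and Hmox1 is the best known gene under both factors. The lens keeps glutathione and thioredoxin systems at work against oxidation of its proteins, which is why the enzymes that make and recycle glutathione are followed closely in this tissue.

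The start regions of 4 of these genes are shown because they hold a match to the core of the ARE, TGACNNNGC, on either strand. RefSeq promoter windows on GRCm38.p6, from 250 bases before to 50 bases after a start site, were at hand for 8 of the 10 genes, Hmox1 and Gclc being the others, and covered 13 start sites. Capitals mark each match to TGACNNNGC and each match to the AP-1 motif TGANTCA, all written on the strand of the gene, which is the plus strand for these 4. The windows are chr2:152105274-152105573 for Srxn1, chr10:82858956-82859255 for the second of 3 Txnrd1 start sites, chr3:122245307-122245606 for Gclm and chr2:127070407-127070706 for Blvra.
Srxn1: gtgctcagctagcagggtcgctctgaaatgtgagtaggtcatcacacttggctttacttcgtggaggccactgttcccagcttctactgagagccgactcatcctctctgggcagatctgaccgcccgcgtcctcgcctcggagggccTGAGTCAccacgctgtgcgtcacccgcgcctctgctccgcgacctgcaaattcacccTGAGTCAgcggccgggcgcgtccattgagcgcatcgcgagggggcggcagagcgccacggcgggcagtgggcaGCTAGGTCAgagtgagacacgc
Txnrd1: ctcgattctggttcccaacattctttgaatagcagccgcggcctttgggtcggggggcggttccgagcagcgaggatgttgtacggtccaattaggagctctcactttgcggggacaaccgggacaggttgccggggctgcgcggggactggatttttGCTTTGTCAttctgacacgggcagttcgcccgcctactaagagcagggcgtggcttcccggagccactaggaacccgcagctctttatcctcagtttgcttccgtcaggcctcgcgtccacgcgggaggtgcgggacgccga
Gclm: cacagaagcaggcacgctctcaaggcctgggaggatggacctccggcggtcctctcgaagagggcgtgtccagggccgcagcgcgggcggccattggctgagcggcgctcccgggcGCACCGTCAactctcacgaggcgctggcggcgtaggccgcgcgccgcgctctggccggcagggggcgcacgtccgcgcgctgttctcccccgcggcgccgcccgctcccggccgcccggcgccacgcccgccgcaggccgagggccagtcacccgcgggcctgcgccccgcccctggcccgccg
Blvra: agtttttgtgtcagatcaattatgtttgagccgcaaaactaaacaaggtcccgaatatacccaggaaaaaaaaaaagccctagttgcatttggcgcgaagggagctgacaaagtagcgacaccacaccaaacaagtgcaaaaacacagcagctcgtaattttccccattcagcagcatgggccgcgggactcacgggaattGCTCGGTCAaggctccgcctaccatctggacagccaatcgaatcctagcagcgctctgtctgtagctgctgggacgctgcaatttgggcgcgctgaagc

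Of 32851 such windows over all genes, 12.4% held the ARE core, 7.81% the AP-1 motif and 1.17% both. Srxn1 held both motifs. An AP-1 match TGAGTCA began at -102 from the start site and another at -45. On the opposite strand the ARE core match TGACCTAGC lay at 29. The AP-1 match at -45 is followed directly by the letters gc, so that stretch differs from TGACNNNGC only by G in place of C after TGA. The core match lay at -92 in Txnrd1 (TGACAAAGC), at -134 in Gclm (TGACGGTGC) and at -49 in Blvra (TGACCGAGC), in each on the strand opposite to the gene. The windows of Hmox2, Blvrb, Nqo1 and Slc7a11 and the other Txnrd1 windows held neither motif. A match is a run of letters and not a measured binding site, and windows without one say nothing about elements farther away.

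The 6 libraries held 8069314 to 10862573 gene counts each. Crystallin and other fiber markers were abundant at both times, and all 10 fiber markers listed were lower at 24 h, with a summed 19070, 21910 and 20710 CPM in replicates 1 to 3 at 24 h and 74160, 40390 and 53040 CPM at 0 h. All 8 genes listed as lens epithelium markers were detected, and Cryaa and Cryab were the most abundant of them. At 24 h 5 of them were lower (Foxe3, Cryab, Six3, Maf and Prox1) and 0 higher, and Pax6, Cdh1 and Cryaa were not called. Photoreceptor markers were also present, 10 of 10 of them, with summed levels of 1114 to 5065 CPM at 24 h and 2047 to 6306 CPM at 0 h and none called. Pigment and ciliary epithelium markers varied widely between the 24 h libraries, from 122 to 1193 CPM at 24 h and from 312 to 451 CPM at 0 h, with 3 higher and 5 lower of 10 tested, of which 1 and 2 passed the low-count filter only through the time at which they were high. Corneal epithelium markers summed to 372 to 719 CPM at 24 h and 781 to 1128 CPM at 0 h, with 2 higher and 1 lower of 5 tested. Most of that sum was Aldh3a1, the 1 called lower. It had 324, 344 and 619.5 CPM in replicates 1 to 3 at 24 h and 1106, 776 and 740 CPM at 0 h. The 2 called higher, Krt5 and Krt12, had at most 1.71 CPM at 0 h. At 24 h Krt5 had 25.2, 0.637 and 34.3 CPM and Krt12 had 9.46, 0.212 and 35.6 CPM.

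Of the 10 genes, Hmox1, Srxn1 and Txnrd1 rose by 24 h, Gclc fell, and the other 6 did not pass the test. The test was edgeR's quasi-likelihood test on the counts of all 13956 genes that passed a low-count filter, and a gene was called when its Benjamini-Hochberg adjusted p was under 0.05. Among all genes tested, 15.2% were called higher and 13% lower at 24 h, against 3 and 1 of these 10, none of which passed the filter through 1 time alone. All 24 h libraries were above all 0 h libraries in 3 of the 10 genes and below them in 2, and groups failed to overlap in either direction in 44.7% of all genes tested, 22.9% above and 21.8% below. The median log2 fold change was 0.25 over the 10 genes and -0.03 over all genes tested. Levels are given as TMM-scaled CPM, counts scaled to library size, in the order of replicates 1, 2 and 3. All adjusted p-values are from this fit where no other setting is named, and since nothing says how the libraries relate to animals, these p-values measure only the spread between libraries.

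**Figure D1:**
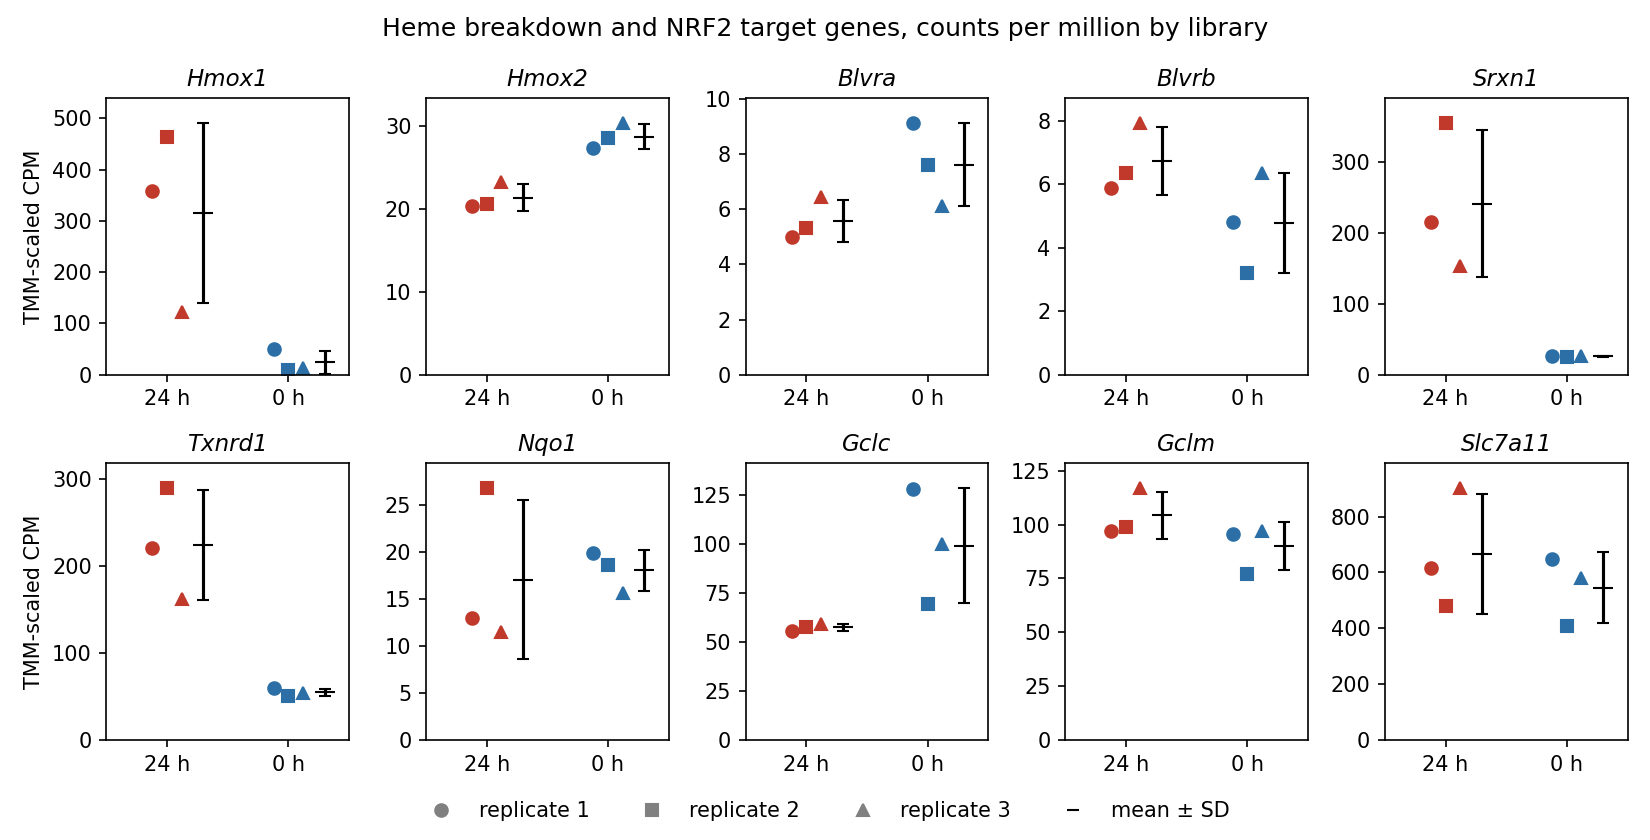
TMM-scaled CPM of each of the 10 genes in each library, with the 24 h libraries in red on the left and the 0 h libraries in blue on the right of each panel, and a black bar for the mean and SD of 3 libraries. The red points of Hmox1, Srxn1 and Txnrd1 lie above all blue points, those of Hmox2 and Gclc lie below them, and the points of the other 5 genes overlap.

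Hmox1 (chromosome 8, 75093618 to 75100593 on mm10) had 359, 464 and 121 CPM at 24 h, against 49.8, 9.82 and 13.4 CPM at 0 h. Every 24 h library was above every 0 h library, but replicate 3 at 24 h was far below the other 24 h libraries and replicate 1 at 0 h far above the other 0 h libraries. The log2 fold change was 3.69 ± 0.69 (SE), a 12.9-fold difference with an adjusted p of 0.00516. Without 0 h replicate 1 the log2 fold change was 4.79 (adjusted p = 0.00424), and leaving out any other library gave 3.30 to 4.07. Hmox1 had the highest coefficient of variation of the 10 genes at both times, 55.8% at 24 h and 90.8% at 0 h.

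Hmox2, the constitutive heme oxygenase (chromosome 16, 4726361 to 4766249), had 20.3, 20.6 and 23.3 CPM at 24 h and 27.4, 28.6 and 30.4 CPM at 0 h. All 24 h libraries lay below all 0 h libraries, with a log2 fold change of -0.43 ± 0.15 (SE), but the gene was not called (adjusted p = 0.0675). In tissue of many cells, a lower level, of this gene or of any gene below, cannot be told apart from a smaller share of the cells that carry the RNA. In GENCODE M21, 892 of the 2217 exon bases of Hmox2 are also covered by exons of Cdip1 on the opposite strand, and the sources used here do not give the strand setting of the counting.

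Per length, in the authors' deposited RPKM, Hmox1 made up 93.9%, 95.1% and 81.9% of the summed Hmox1 and Hmox2 level at 24 h, against 61.2%, 23.0% and 27.7% at 0 h. The share was above that of Hmox2 in all 24 h libraries and in replicate 1 at 0 h. The means were 90.3% ± 7.30 and 37.3% ± 20.9 (SD, n = 3 each), a difference of 53.0 percentage points, and p was 0.1 in an exact two-sided permutation test, the smallest that 3 against 3 libraries allow.

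Blvra, which encodes the main adult biliverdin reductase (chromosome 2, 127070657 to 127097084), had 4.99, 5.31 and 6.45 CPM at 24 h and 9.12, 7.62 and 6.10 CPM at 0 h, and the groups overlapped. Blvrb, a reductase for biliverdin of the beta type and for flavins (chromosome 7, 27447978 to 27465981), had 5.88, 6.37 and 7.93 CPM at 24 h and 4.81, 3.21 and 6.35 CPM at 0 h, and its groups overlapped as well. Neither was called, with adjusted p of 0.293 for Blvra and 0.325 for Blvrb. The 95% intervals of the log2 fold change ran from -1.11 to 0.21 for Blvra and from -0.29 to 1.28 for Blvrb, so a rise of the size seen in Hmox1 lay outside both. They were the lowest of the 10 genes per length at either time, at 4.91 ± 0.754 and 6.94 ± 1.21 RPKM at 24 h and 6.32 ± 1.24 and 4.60 ± 1.29 RPKM at 0 h for Blvra and Blvrb (SD, n = 3 each).

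Srxn1 encodes sulfiredoxin, which restores peroxiredoxins that have been oxidised past their working state (chromosome 2, 152105524 to 152111376). It had 216, 355 and 153 CPM at 24 h, against 26.3, 25.5 and 26.1 CPM at 0 h. The 0 h libraries were almost identical, with a coefficient of variation of 1.65%, and all 24 h libraries lay far above them. The log2 fold change was 3.22 ± 0.30 (SE), a 9.30-fold difference, and the adjusted p of 0.000193 was the lowest of the 10 genes. Txnrd1 encodes the cytosolic thioredoxin reductase, a selenoenzyme that keeps thioredoxin reduced (chromosome 10, 82833951 to 82897724). It had 220.2, 289 and 162 CPM at 24 h and 59.2, 50.4 and 53.9 CPM at 0 h, with no overlap. The log2 fold change was 2.04 ± 0.22 (SE), a 4.10-fold difference with an adjusted p of 0.000367. Both genes were called with each library left out in turn, at log2 fold changes of 2.83 to 3.46 for Srxn1 and 1.81 to 2.23 for Txnrd1.

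Nqo1 encodes a quinone reductase that is often used as a readout of NRF2 (chromosome 8, 107388225 to 107403205). It had 12.9, 26.8 and 11.5 CPM at 24 h and 19.8, 18.6 and 15.6 CPM at 0 h. Replicate 2 at 24 h was above all 0 h libraries and the other 24 h libraries were below them. The log2 fold change was -0.08 ± 0.32 (SE), with a 95% interval of -0.81 to 0.65 and an adjusted p of 0.884. Without 24 h replicate 2 it was -0.56 (adjusted p = 0.108), with library totals as the only scaling it was 0.02, and without 24 h replicate 1 or 3 or 0 h replicate 1 it was 0.03 to 0.14. The interval of Nqo1 did not reach those of Srxn1 (2.54 to 3.89) and Txnrd1 (1.55 to 2.53).

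At 24 h, Hmox1, Srxn1, Txnrd1 and Nqo1 all had their highest level in replicate 2 and their lowest in replicate 3. Photoreceptor markers followed the same order at 24 h, with 3146, 5065 and 1114 CPM in replicates 1 to 3. At 0 h they had 3968, 6306 and 2047 CPM, with the highest sum in replicate 2. Hmox1, Srxn1 and Txnrd1 were at their lowest in that replicate. Srxn1 hardly differed between the 0 h libraries (26.3, 25.5 and 26.1 CPM). Nqo1 was lowest at 0 h in replicate 3 (15.6 CPM), as was the photoreceptor sum. Pigment and ciliary epithelium markers summed to 1193, 122 and 774 CPM in the 24 h libraries. Dct and Tyrp1 were the most abundant of them in the mean over all 6 libraries. The part of these markers in the levels was not tested.

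**Figure D2:**
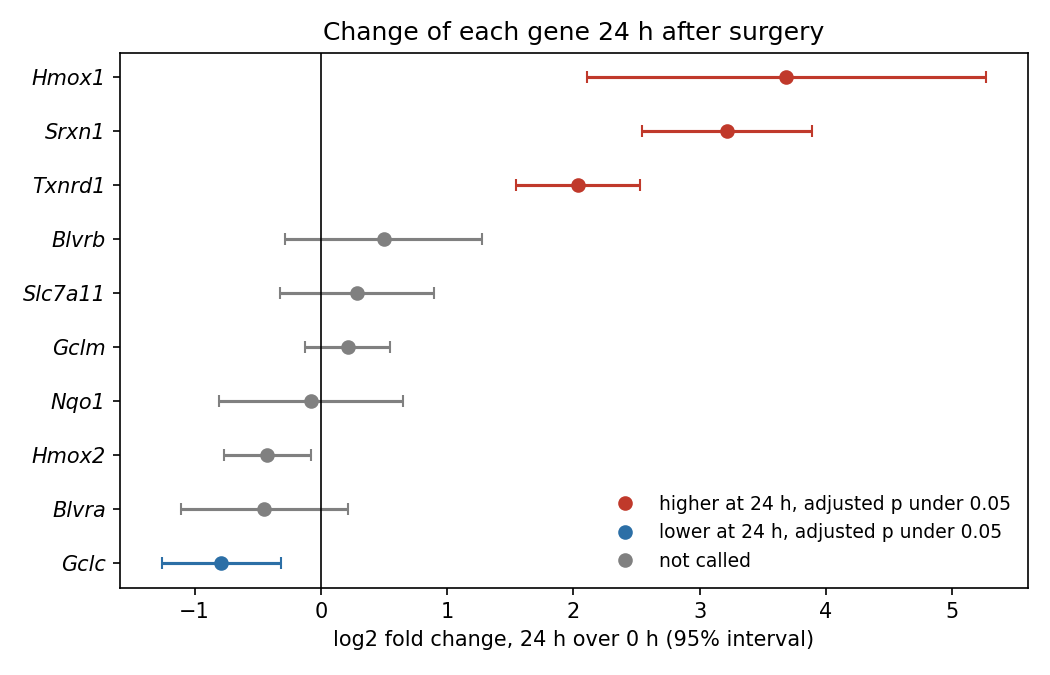
Log2 fold change of each of the 10 genes, 24 h over 0 h, from edgeR's quasi-likelihood fit, with 95% intervals. Hmox1, Srxn1 and Txnrd1 lie at 3.69, 3.22 and 2.04 with intervals above 0, Gclc lies at -0.79 with an interval below 0, and 5 of the 6 grey genes have intervals that cross 0, the exception being Hmox2.

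Of the genes for glutathione supply, Gclc fell, and Gclm and Slc7a11 were not called. Gclc, the catalytic subunit of glutamate-cysteine ligase (chromosome 9, 77754535 to 77794489), had 55.4, 57.6 and 58.9 CPM at 24 h, against 128, 69.4 and 99.6 CPM at 0 h. The 24 h libraries were close together and all lay below the 0 h libraries, which spread widely. The log2 fold change was -0.79 ± 0.21 (SE), a fall of 1.73-fold (adjusted p = 0.0226). The call was lost when 24 h replicate 1 or 2 was left out, with adjusted p of 0.0736 and 0.0580, or 0 h replicate 1 or 3, with adjusted p of 0.0700 (log2 fold change -0.53) and 0.0652, and in a test against a 1.5-fold change (adjusted p = 0.291). The direction stayed lower under all 14 alternatives run, with adjusted p from 0.0049 to 0.291. The limit on falls given for Hmox2 holds for Gclc as well. At 0 h Gclc had the same order of replicates as the summed fiber markers (74160, 40390 and 53040 CPM), and at 24 h it did not. The part of fiber cells in its level was not tested.

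Gclm, the modifier subunit that makes the ligase more efficient (chromosome 3, 122245557 to 122267215), had 97.2, 98.7 and 117 CPM at 24 h and 95.6, 77.1 and 97.3 CPM at 0 h. The groups overlapped, and the log2 fold change of 0.21 ± 0.15 (SE) was not called (adjusted p = 0.324). The 95% interval ran from -0.12 to 0.55. In GENCODE M21, 244 of its 6291 exon bases are shared with the pseudogene Gm6061 on the same strand and 296 with Gm17494 on the opposite strand.

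Per length, the ratio of Gclm to Gclc was 2.90, 2.84 and 3.28 in the 24 h libraries, against 1.24, 1.84 and 1.62 in the 0 h libraries. All 24 h ratios were above all 0 h ratios, with means of 3.01 ± 0.240 and 1.56 ± 0.302 (SD, n = 3 each). The mean log2 ratio was 0.96 higher at 24 h, and p was 0.1 in an exact two-sided permutation test, again the lowest possible. This ratio was chosen after its values were seen.

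Slc7a11 encodes xCT, the exchanger that brings in cystine for glutathione synthesis (chromosome 3, 50364936 to 50443613). It had 616, 480 and 901 CPM at 24 h and 649.9, 407 and 582 CPM at 0 h. Replicate 3 at 24 h was the highest library, and the groups overlapped. The log2 fold change was 0.29 ± 0.27 (SE), with a 95% interval of -0.32 to 0.90 and an adjusted p of 0.471, and it was 0.01 without 24 h replicate 3. Slc7a11 also acts in the pigment cells of mice, and the pigment and ciliary epithelium markers given above were lowest in the 24 h library where Slc7a11 was lowest, replicate 2, but highest in replicate 1. Their part in its level was not tested.

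**Figure D3:**
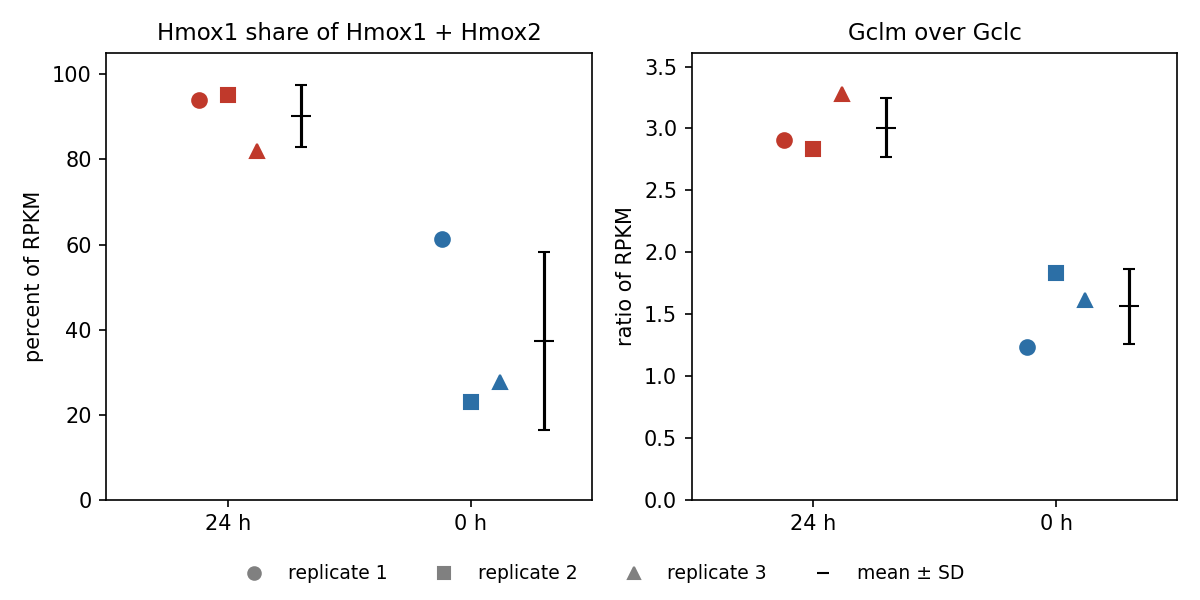
The share of Hmox1 in the summed RPKM of Hmox1 and Hmox2 (left, percent) and the ratio of Gclm to Gclc RPKM (right), by library, with 24 h in red left of 0 h in blue and black bars for the mean and SD of 3 libraries. The share lies between 81.9% and 95.1% at 24 h and between 23.0% and 61.2% at 0 h, and the ratio between 2.84 and 3.28 at 24 h and between 1.24 and 1.84 at 0 h.

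The order of the 10 genes by RPKM changed between the times. At 24 h the order was Hmox1 (207 ± 122 RPKM), Srxn1 (89.4 ± 43.2), Slc7a11 (73.8 ± 22.9), Txnrd1 (57.6 ± 19.1), Gclm (51.7 ± 6.11), Gclc (17.2 ± 1.39), Hmox2 (16.1 ± 1.53), Nqo1 (11.5 ± 6.37), Blvrb and Blvra. The libraries of neighbours in this order overlapped, except between Gclm and Gclc and between Blvrb and Blvra. At 0 h the order was Slc7a11 (56.9 ± 9.19 RPKM), Gclm (41.97 ± 2.31), Gclc (27.7 ± 6.38), Hmox2 (20.5 ± 1.93), Hmox1 (14.6 ± 12.6), Txnrd1 (13.2 ± 0.495), Nqo1 (11.3 ± 1.70), Srxn1 (8.97 ± 0.561), Blvra and Blvrb (SD, n = 3 throughout). At 0 h the libraries of neighbours overlapped, except between Slc7a11 and Gclm, between Gclm and Gclc and between Srxn1 and Blvra. Hmox1 stood above 98.6% of all tested genes in mean RPKM at 24 h and above 71.6% at 0 h, and Srxn1 above 96.4% and 56.4%.

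Genes around these 10 in the same pathways were counted from lists of known NRF2 targets, NRF2 regulators and heme genes. Of 28 other NRF2 targets, 27 passed the low-count filter, and 13 were higher and 2 lower at 24 h. That is 48.1% and 7.41% of those tested, beside 15.2% and 13% of all genes, and the median log2 fold change was 0.52 beside -0.03. Gsta1 and Gsta2 passed the filter only through their 24 h counts, so the higher count includes genes that had to differ, which leaves 11 that did not.

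Gsr, glutathione reductase, had 64.3, 75.7 and 92.1 CPM at 24 h and 16.6, 17.0 and 17.6 CPM at 0 h, a log2 fold change of 2.18 ± 0.17 (SE, adjusted p = 8.53e-05). Abcc1, a pump that exports glutathione conjugates, rose by 1.36 ± 0.15 on the log2 scale (SE, adjusted p = 0.000477). Pgd, an NADPH-forming enzyme of the pentose phosphate pathway, rose by 1.09 ± 0.14 (SE, adjusted p = 0.000828). The thioredoxin gene Txn1, named after its values were seen, had 68.9, 116 and 88.2 CPM at 24 h and 33.9, 29.1 and 36.5 CPM at 0 h, and was called higher together with its reductase gene Txnrd1.

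The targets that fell were Gstm1 and Tkt, with the limit on falls given for Hmox2. Gstm1, a glutathione S-transferase with close paralogs that may share its reads, had 424, 305 and 445 CPM at 24 h and 1161, 1126 and 1304 CPM at 0 h, a log2 fold change of -1.61 ± 0.20 (SE, adjusted p = 0.000683). Tkt, transketolase of the pentose phosphate pathway, had 782, 648 and 979.8 CPM at 24 h and 2072, 1396 and 2073 CPM at 0 h, a log2 fold change of -1.20 (adjusted p = 0.00637). Gsta1, another glutathione S-transferase, had 117 counts at 24 h and 0 counts at 0 h, at least 41.1-fold higher against a floor of 3 counts over the group. Gsta2 had 128 counts at 24 h and 1 count at 0 h, which is a ratio of 135 per scaled count with an exact 95% counting interval of 23.8 to 5370, and reads of these near-identical genes may have been split or lost in counting. The ferritin genes Fth1 and Ftl1, which store the iron that heme oxygenase releases, rose by 0.86 (adjusted p = 0.0117) and 0.82 (adjusted p = 0.0177) on the log2 scale. Ftl1 was not called without 0 h replicate 2 or 3 or without 24 h replicate 2, and neither was called against a 1.5-fold change. G6pdx, the first enzyme of the pentose phosphate pathway, rose by 0.52 (adjusted p = 0.0444), but leaving out any of 4 libraries ended its call.

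**Figure D4:**
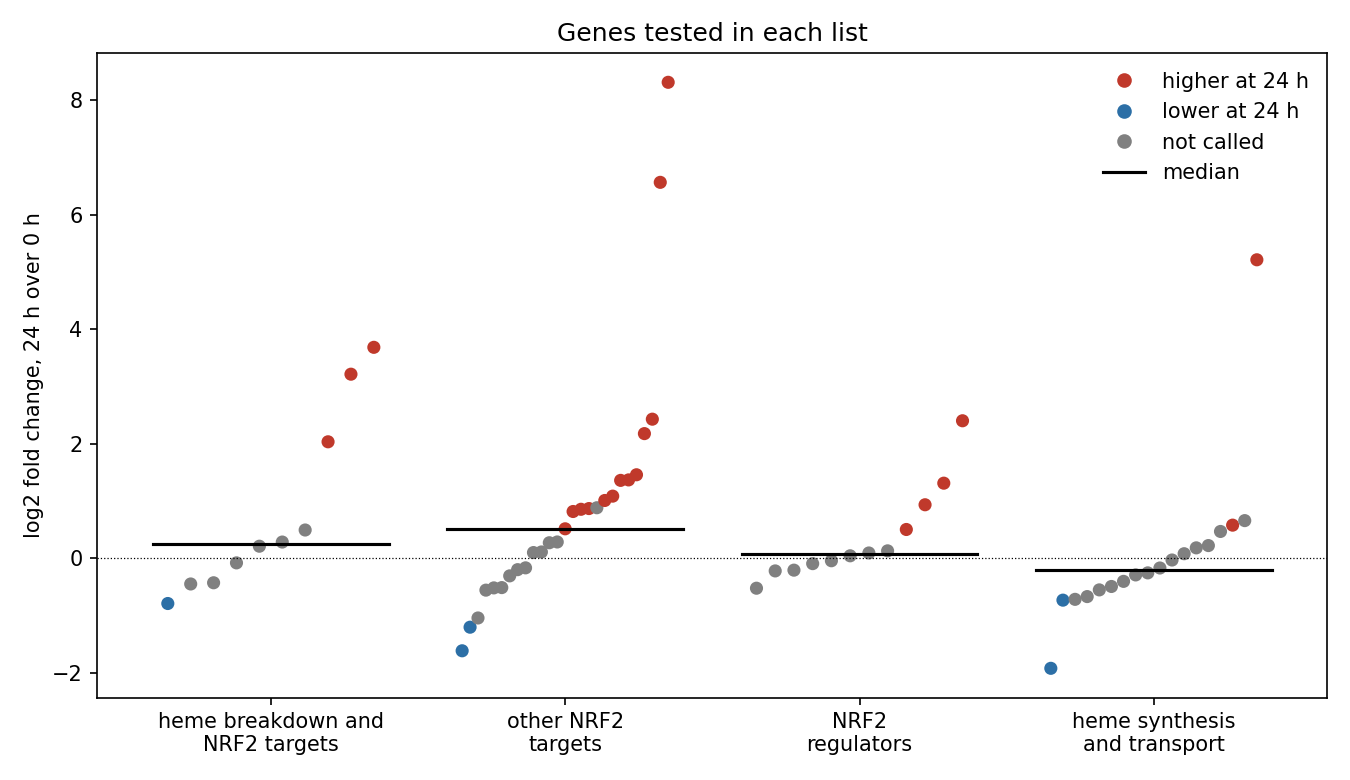
Log2 fold change, 24 h over 0 h, of each tested gene in the 10 described genes and in 3 pathway lists, with a black line at each median (0.25, 0.52, 0.07 and -0.21 from left to right). The highest points, Gsta1 and Gsta2 in the second column, had 0 and 1 counts at 0 h, so their fitted heights depend on the fit's prior count.

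Of 12 NRF2 regulators, 4 were higher and 0 lower at 24 h, or 33.3% and 0% of them, beside 15.2% and 13% of all genes, with a median log2 fold change of 0.07. Nfe2l2, which encodes NRF2, had 62.7, 71.5 and 68.8 CPM at 24 h and 49.6, 44.9 and 48.6 CPM at 0 h, a log2 fold change of 0.51 ± 0.12 (SE, adjusted p = 0.0164). All 24 h libraries were above all 0 h libraries, and the call was lost without 0 h replicate 2 (adjusted p = 0.0624) and against a 1.5-fold change (adjusted p = 0.981). Bach1, the repressor, rose by 0.94 ± 0.18 on the log2 scale (SE, adjusted p = 0.00611), with 34.3, 24.5 and 30.0 CPM at 24 h and 15.8, 16.3 and 14.2 CPM at 0 h. Against a 1.5-fold change Bach1 was not called either (adjusted p = 0.0866).

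Maff, a small MAF protein without a transactivation domain, had 21.1, 50.8 and 21.6 CPM at 24 h and 5.51, 7.31 and 4.76 CPM at 0 h, a log2 fold change of 2.40 ± 0.38 (SE, adjusted p = 0.00239), and 1.86 to 2.65 with a library left out. Its relatives Mafg and Mafk were not called (adjusted p = 0.102 and 0.601). Sqstm1, the autophagy receptor that binds KEAP1 and is itself an NRF2 target, had 575, 644 and 422 CPM at 24 h and 259, 204 and 198 CPM at 0 h, a log2 fold change of 1.31 ± 0.20 (SE, adjusted p = 0.00209). Keap1 had 37.6, 33.7 and 30.6 CPM at 24 h and 48.3, 33.4 and 35.6 CPM at 0 h, with overlapping groups (adjusted p = 0.437).

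Of 18 genes of heme synthesis and transport, all tested, 2 were higher and 2 lower at 24 h, or 11.1% each, beside 15.2% and 13% of all genes. The median log2 fold change was -0.21. Alad, which joins precursors into porphobilinogen, had 141, 79.9 and 185 CPM at 24 h and 531, 436 and 568 CPM at 0 h, a log2 fold change of -1.92 ± 0.29 (SE, adjusted p = 0.00182). Flvcr1, a heme exporter listed under its older symbol Mfsd7b, fell by 0.73 ± 0.18 on the log2 scale (SE, adjusted p = 0.0173), and its call was lost without any of 4 libraries. Against a 1.5-fold change Flvcr1 was not called either (adjusted p = 0.351). Hp, haptoglobin, which binds free hemoglobin, had 4.09, 4.25 and 8.78 CPM at 24 h, against 0, 0.401 and 0 CPM at 0 h (adjusted p = 0.00356). Hp passed the low-count filter only through its 24 h libraries and so had to differ, which leaves 1 of the 2 heme genes called higher that did not. Alas1, the rate-limiting enzyme of heme synthesis outside red cells, had 39.3, 32.2 and 40.8 CPM at 24 h and 31.9, 22.1 and 27.0 CPM at 0 h. All 24 h libraries were above all 0 h libraries, without a call (adjusted p = 0.0853).

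Markers of blood cells, in which heme and Hmox1 are handled, were measured beside these genes. Of 9 erythrocyte markers 5 had 0 counts in all libraries and only Alas2 passed the filter. It reached the filter's cutoff in 3 libraries at 24 h and in 1 at 0 h. It was thus kept through its 24 h counts, which favours a call of higher. Alas2, the heme synthesis enzyme of red cells, had 8.44, 7.97 and 2.75 CPM at 24 h and 1.30, 0.601 and 0.854 CPM at 0 h (adjusted p = 0.00735). Hbb-bs reached at most 0.384 CPM, and since globin genes have near-identical copies, their reads may have been lost in counting. Summed erythrocyte markers were 8.82, 7.97 and 3.07 CPM in replicates 1 to 3 at 24 h and 1.60, 0.802 and 0.854 CPM at 0 h. This sum was lowest at 24 h in replicate 3 and highest at 0 h in replicate 1, as was Hmox1. At 24 h the sum was highest in replicate 1, and Hmox1 was highest in replicate 2.

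Macrophage markers summed to 109, 84.3 and 169 CPM at 24 h and 81.0, 157 and 188 CPM at 0 h, with 1 higher and 4 lower of 11 tested. Over all 6 libraries the most abundant were Lyz2, which was not called (adjusted p = 0.143), and Csf1r, which was lower (adjusted p = 0.0406). The marker called higher was Cd68, named after its values were seen, with 30.6, 32.3 and 40.5 CPM at 24 h and 3.61, 6.31 and 7.81 CPM at 0 h (log2 fold change 2.55, adjusted p = 0.000489), and it had the highest mean of these markers at 24 h. Of the 4 lower, 1 passed the filter only through its 0 h libraries. The lowest sum of macrophage markers was in replicate 1 at 0 h, the library with the highest 0 h level of Hmox1, and at 24 h it was in replicate 2, where Hmox1 was highest. Neutrophil markers summed to 94.3, 125 and 181 CPM at 24 h and 6.21, 13.0 and 16.6 CPM at 0 h, with Itgam and Csf3r the most abundant and Elane at 0 counts in all libraries. All 5 of those tested were called higher. But 3 of them, Itgam, S100a8 and S100a9, reached the filter's cutoff in every library only at 24 h, which favours a call of higher. At 0 h S100a8 and S100a9 reached it in 0 libraries and Itgam in 2. At 24 h the highest sum of neutrophil markers was in replicate 3, where Hmox1, Srxn1 and Txnrd1 were lowest. The part of blood cells in the levels of the 10 genes was not tested.

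Among all tested genes outside the 10, those whose log2 CPM followed Hmox1 most closely over the 6 libraries were Cdyl, Rnpepl1, Mrps22, Fos and Glrx, with Pearson r of 0.992 to 0.998. The libraries fall into 2 times, so these values reflect the difference between times as well as the order within them and are a description only. Fos, an AP-1 subunit, had 95.4, 147 and 39.5 CPM at 24 h and 14.7, 4.51 and 3.54 CPM at 0 h, with a log2 fold change of 3.61 ± 0.62 (SE, adjusted p = 0.00332). Glrx, which encodes glutaredoxin, had 31.3, 37.9 and 16.2 CPM at 24 h and 12.5, 6.41 and 6.22 CPM at 0 h, with a log2 fold change of 1.76 ± 0.38 (SE, adjusted p = 0.00984). Both were highest at 0 h in replicate 1 and highest at 24 h in replicate 2, as was Hmox1. Cdyl was also called (log2 fold change 0.83, adjusted p = 0.0168), and Rnpepl1 and Mrps22 were not (adjusted p = 0.141 and 0.0663). Against a 1.5-fold change Cdyl was not called (adjusted p = 0.221).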

How the data were processed

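RNA of 6 lens capsule samples was isolated on RNeasy columns and sequenced from TruSeq libraries; the labels' protocols name a standard and a stranded kit. Per the submitters' processing notes, the tools were Trim Galore 0.4.4, TopHat2 2.1.0, HTSeq 0.6.1p1 and edgeR 3.16.5, with mm10 as build. Strand setting and annotation were not found in the sources used here. The values deposited by the authors are raw read counts and RPKM per gene with coordinates, per the file headers. The deposited RPKM equal count over length over summed gene counts and served only to compare levels between genes.

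After filterByExpr (defaults, minimum count 10), 13956 of 24147 rows remained. Libraries were scaled by TMM, and 24 h was set against 0 h with the quasi-likelihood F-test of edgeR 4.0.16 in R 4.3.3, without covariates; p-values are two-sided and adjusted by Benjamini-Hochberg over all genes tested (threshold 0.05). Each standard error is the size of the log2 fold change over the square root of F, and is approximate. The code was tested on simulated data. At 3 counts a library reads 0.276 to 0.372 CPM; floors and intervals of counts cover counting error only. The 3 pathway lists and 8 marker lists were matched by symbol or RefSeq synonym (GRCm38.p6).

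The members and lists were chosen with earlier results of these data known. By rule, the text names the 10 members, the 4 genes with the lowest p in each pathway list, the 5 genes most like Hmox1 and the 2 most abundant genes of a marker list; other genes were named after their values were seen. Some genes that this rule names are not reported here. Alternatives were DESeq2 1.42.0 (size factors, Wald test), limma-voom (limma 3.58.1), library totals, other filters, a 1.5-fold test, a replicate block and leaving out each library.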

Additional observations from a re-analysis of the deposited data

How the results depend on the processing

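Hmox1, Srxn1 and Txnrd1 were called higher under all 14 alternatives, and no called gene of the 10 changed direction. The number of the 10 genes called lower, 1, was 0 against a 1.5-fold change, and 0 to 1 with a library left out, because of Gclc. Against a 1.5-fold change, 1060 genes were higher and 629 lower in place of 2125 and 1817, and 2 NRF2 regulators, 1 heme gene higher and 1 heme gene lower were called. Other NRF2 targets called higher numbered 13 in the main fit, 9 against a 1.5-fold change and 10 to 13 with a library left out. Without the low-count filter 1 heme gene was higher. With a library left out, all genes ranged from 1551 to 1897 higher and 1041 to 1648 lower (the lowest without 0 h replicate 3), other NRF2 targets from 2 to 4 lower (4 without 24 h replicate 3), NRF2 regulators from 0 to 1 lower (Mafg, without 0 h replicate 1), and heme genes from 1 to 2 higher and 1 to 4 lower. Where a call was lost, the cause was not tested.

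Libraries with the same replicate number at both times deviated from their group means with correlations of 0.09, 0.22 and 0.41 across genes. Of the pairs with different numbers, 24 h replicate 1 and 0 h replicate 2 gave 0.18, and the rest gave -0.36 to -0.02. The sources used here do not state that the numbers pair the libraries, so the main test was not paired. With the replicate block, 2315 of all genes were higher and 2174 lower, against 2125 and 1817 without it. In that fit 4 other NRF2 targets and 5 heme genes were lower, against 2 and 2 without the block, and no call of the 10 genes changed. The log2 ratio of Gclm to Gclc, chosen after seeing the data, differed by 0.80 to 1.09 with a library left out. Nqo1, never called, changed sign with library totals as the only scaling and without 24 h replicate 1, 24 h replicate 3 or 0 h replicate 1.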
